A study of Solanum lycopersicum with 12 samples.

Results

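The response of slstop1 mutant tomato roots to aluminium was described by comparing 3 libraries from mutant roots exposed to 60 µM Al with 3 libraries from mutant roots at 0 µM Al, both at pH 4.7. It covers the gene models that reached 1 FPKM in at least 3 of these 6 libraries, 14643 of the 35768 in the deposited table, and 12328 of the remainder were at 0 in all 6. FPKM is the number of sequenced fragments assigned to a gene, divided by transcript length and by the library total. At the edge of this limit, the 226 genes whose third-highest value lay from 1 to 1.1 FPKM had a median level of 1.15 FPKM without Al and 0.72 FPKM with Al, and the 257 genes from 0.9 to 1 FPKM had 1.05 and 0.673 FPKM.

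The plants were Solanum lycopersicum, 20 days old after germination, and whole-root mRNA was sequenced from 4 groups with 3 biological replicates each. The groups were slstop1 at 0 µM Al, slstop1 at 60 µM Al, wild type (WT) at 0 µM Al and WT at 60 µM Al, and all of them grew at the acid pH of 4.7. The controls therefore carry the acid treatment and, in the comparison described here, the mutation as well. The mutant allele, the number of independent mutant lines, the cultivar and the length of the exposure were not given in the labels used here.

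STOP1 is a zinc finger transcription factor, known best from Arabidopsis, where it sustains root growth in acid soil and switches on genes for exclusion and tolerance of Al. One of its known Arabidopsis targets is a channel that releases malate, an organic acid that binds Al ions outside the root. Al ions become soluble at low pH, halt growth at the root tip and damage cell walls and membranes.

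The deposited table lists genes by Solyc identifiers and pairs none of them with a name or a description. A Solyc identifier holds the chromosome number and follows gene order along it. SlSTOP1, FER, SlIRT1 and SlFRO1 are named from published nomenclature, and every other gene is given by its identifier alone, at most 2 that rose and 2 that fell in each comparison. For the same reason the root label could not be checked against marker genes.

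The replicates of each mutant group lay close together and far from the other group. Over the members, Spearman correlations between libraries ran from 0.954 to 0.964 without Al, from 0.969 to 0.975 with Al, and from 0.600 to 0.667 between the groups. The median SD between replicates was 0.20 on the log2(FPKM + 1) scale without Al and 0.150 with Al. The total number of fragments per library is unknown. From the spacing of low values depth differed by a factor of at most 1.31 between mutant libraries, and no sequencing batch is given in the labels.

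SlSTOP1 itself (Solyc11g017140.2, chromosome 11), the gene disrupted in the mutant, had 39.8, 34.7 and 33.5 FPKM in the mutant libraries lacking Al and 29.1, 30.0 and 27.6 FPKM in those given Al. All libraries with Al were below those without, by a log2 difference of -0.30 ± 0.138 (SE; limma adjusted p = 0.0719), which did not pass the test. The direction depended on the scaling: with median-of-ratios scaling the difference was 0.16 (adjusted p = 0.235), and the adjusted p ranged from 0.0156 to 0.516 over the 23 alternatives. It passed with only the 6 mutant libraries (0.0243) and without replicate 3 of WT at 0 µM Al (0.0156). For comparison, WT had 72.7, 79.2 and 56.0 FPKM at 0 µM Al and 85.8, 80.8 and 88.6 FPKM at 60 µM, all above every mutant library.

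FER (Solyc06g051550.3, chromosome 6) encodes the basic helix-loop-helix transcription factor that switches on iron uptake in tomato roots. It had 25.3, 36.3 and 31.0 FPKM in the mutant libraries lacking Al and 7.20, 7.44 and 7.97 FPKM in those given Al, so that the groups lay far apart and the libraries with Al were nearly alike. The level without Al was 4.10 times that with Al (log2 -1.89 ± 0.267; limma adjusted p = 7.97e-05; -2.02 to -1.45 and called under all 23 alternatives). WT had 54.8, 56.8 and 42.1 FPKM at 0 µM Al and 57.6, 27.4 and 60.5 FPKM at 60 µM, and those groups overlapped. The test of the difference between the responses did not pass (interaction log2 -1.74 ± 0.378, limma adjusted p = 0.0575; 0.00347 to 0.178 over 22 alternatives). It passed in 3 of them, without replicate 2 of WT with Al (0.00347), with a pseudocount of 0.1 (0.0478) and among genes with a mean of at least 5 FPKM (0.0438).

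The genes for iron reduction and import that FER is known to regulate in tomato could not be followed. SlFRO1 (Solyc01g094910.3), a ferric reductase, had 0.15, 0.03 and 0.07 FPKM in the mutant libraries lacking Al and 0.17, 0.07 and 0.05 FPKM in those given Al. SlIRT1 (Solyc02g069200.3), an iron transporter, was at most 0.13 FPKM in the mutant without Al and was listed at 0 with Al. Both stayed under 1 FPKM in all mutant libraries, and neither reached it in the 3 libraries needed to be tested.

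Al changed most of the genes active in mutant roots. In whole roots, fewer cells of a type and less RNA per cell cannot be told apart. Of the 14643 members, 10182 were called (limma, adjusted p under 0.05), against 66.8% of all 15903 genes tested in the series, which is nearly the same set: 3307 rose (background 21.3%) and 6875 fell (background 45.5%). The median rise was 1.32 and the median fall -1.58 on the log2 scale, and the middle 50% of the changes ran from 0.84 to 2.15 for rises and from -2.40 to -1.0 for falls. The mutant groups did not overlap in 10096 of the called genes, a count that the call itself favours, since it rests on the same values. Over all members, called or not, the groups were apart in 11549 (background 75.9%). Of the 4461 members not called, 3449 had a change under 0.5 in size and 216 had one of at least 1. The median SE over all 4461 was 0.252, and that of the 216 was not computed.

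The changes were often large. At least 1 on the log2 scale was reached by 2155 rises and 5158 falls (background 13.8% and 33.3%), at least 2 by 948 and 2439 (5.97% and 15.4%), at least 4 by 185 and 408 (1.16% and 2.57%) and at least 6 by 26 and 67 (0.163% and 0.421%). Falls outnumbered rises at each of these sizes on the FPKM scale. Because FPKM is relative to the library total, this balance depends on the scaling. Median-of-ratios scaling moved the median change of the members from -0.46 to -0.06, after which 4896 members rose (background 31.5%) and 5393 fell (background 35.7%), so that 52.4% of the calls were lower, against 67.5% as deposited. Quantile normalisation moved it to 0.07, with 5199 higher and 4929 lower (48.7% lower). Of the 10182 original calls, 10054 kept their sign and 8700 stayed called with median-of-ratios scaling.

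**Figure D1:**
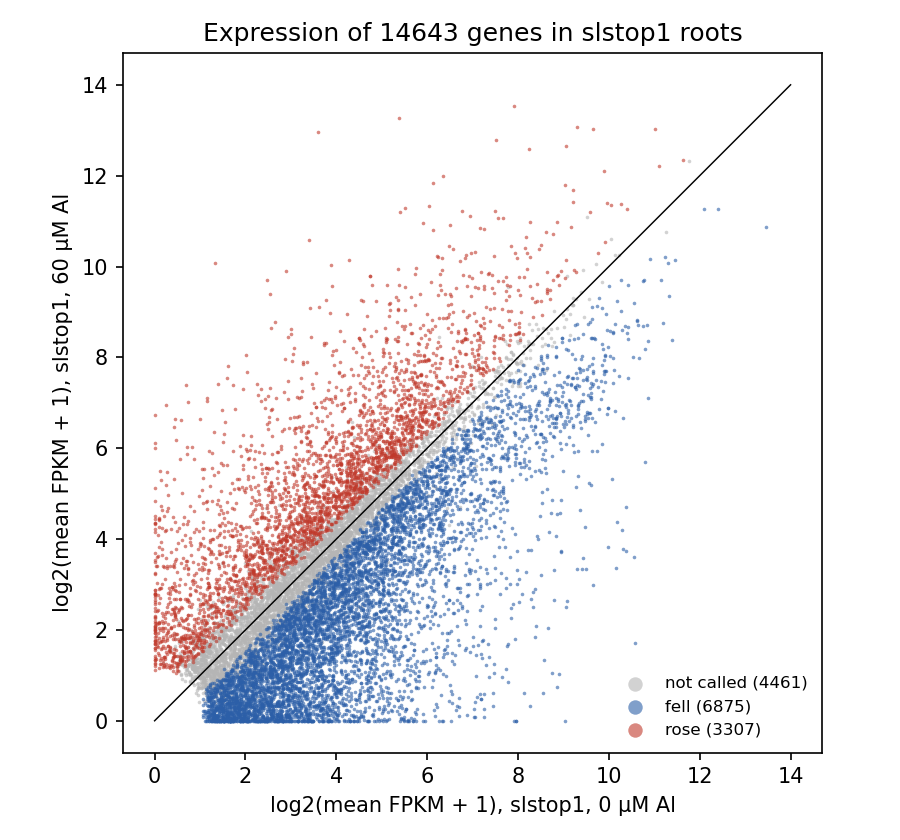
Mean level of each of 14643 genes in slstop1 roots without Al (horizontal) and with Al (vertical), as log2(mean FPKM + 1) of 3 libraries per group, coloured by limma call at an adjusted p under 0.05. The 3307 genes that rose lie above the line of equal levels and the 6875 that fell lie below it, many of the latter along the bottom, near 0 FPKM with Al.

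The largest changes on the log2 scale are given by 2 genes in each direction. Solyc03g120260.3 on chromosome 3 had 11.4, 13.6 and 8.38 FPKM in the libraries lacking Al and 8045, 8178 and 7822 FPKM in those given Al, a mean ratio of 722 (log2 9.39 ± 0.253; limma adjusted p = 3.46e-09). Solyc08g077330.3 on chromosome 8 had 1.81, 2.19 and 0.49 FPKM in the libraries lacking Al and 1166, 1119 and 955 FPKM in those given Al, a ratio of 721 (log2 8.83 ± 0.385, adjusted p = 3.09e-08). The 3 libraries of each group were far closer to each other than to the other group in both genes.

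The largest falls without a library at exact 0 were those of neighbours on chromosome 8. Solyc08g078930.1 had 1380, 1752 and 1429 FPKM in the libraries lacking Al and 0.8, 1.95 and 4.06 FPKM in those given Al, a mean level 670 times as high without Al (log2 -8.98 ± 0.687, limma adjusted p = 8.6e-07). Solyc08g078940.1 had 494, 468 and 462 FPKM in the libraries lacking Al and 1.93, 0.47 and 0.71 FPKM in those given Al, 458 times as high without Al (log2 -7.93 ± 0.581, adjusted p = 6.52e-07). The ratios rest on the few FPKM left with Al, and with a pseudocount of 5 the log2 changes were -7.73 and -6.32. In WT with Al the libraries of Solyc08g078930.1 read 13.6, 74.7 and 5.76 FPKM, each above every mutant library with Al, but the difference in response did not pass the interaction test (adjusted p = 0.347). Neighbouring genes can be near-identical copies between which reads were split, so these are uncertain as separate genes.

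The direction of change among genes abundant in both conditions depended on the scaling. There were 2995 members at 20 FPKM or more in all 6 mutant libraries. On the FPKM scale as deposited 1031 of them rose (background 21.3%) and 1094 fell (background 45.5%), with a median log2 change of -0.01. With median-of-ratios scaling 1535 of them rose (background 31.5%) and 650 fell (background 35.7%), with a median of 0.46. As deposited, changes of at least 2 were found in 213 rises and 223 falls among them (background 5.97% and 15.4%). Genes well above detection in every library thus also moved by 4 or more times. Selecting on high values in both groups leaves out genes that lost most of their level.

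The largest rises of this abundant set lay on chromosomes 1 and 4. Solyc01g109140.3 on chromosome 1 had 37.8, 57.7 and 28.6 FPKM in the libraries lacking Al and 2048, 2643 and 2370 FPKM in those given Al (log2 5.85 ± 0.268, limma adjusted p = 4.25e-08). Solyc04g071590.3 on chromosome 4 had 35.6, 55.6 and 42.1 FPKM in the libraries lacking Al and 2374, 2490 and 2679 FPKM in those given Al (log2 5.81 ± 0.199, adjusted p = 1.1e-08). Their mean levels were 56.9 and 56.6 times as high with Al. Mutant groups that do not overlap were a condition of their choice.

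The opposite extreme of the same set lay on chromosome 7. Solyc07g016215.1 had 1029, 1467 and 1501 FPKM in the libraries lacking Al and 25.8, 26.4 and 22.7 FPKM in those given Al (log2 -5.66 ± 0.439, limma adjusted p = 9.49e-07). Solyc07g009030.3 had 1392, 1990 and 1947 FPKM in the libraries lacking Al and 36.7, 59.8 and 56.7 FPKM in those given Al (log2 -5.11 ± 0.644, adjusted p = 3.29e-05). Both were among the abundant transcripts of the root without Al, and their levels there were 53.3 and 34.8 times those with Al. Solyc07g009030.3 stood among 6 consecutive members that all fell, from Solyc07g009020.2 to Solyc07g009070.3. Reads may have been split between such neighbours, so it is uncertain as a separate gene.

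**Figure D2:**
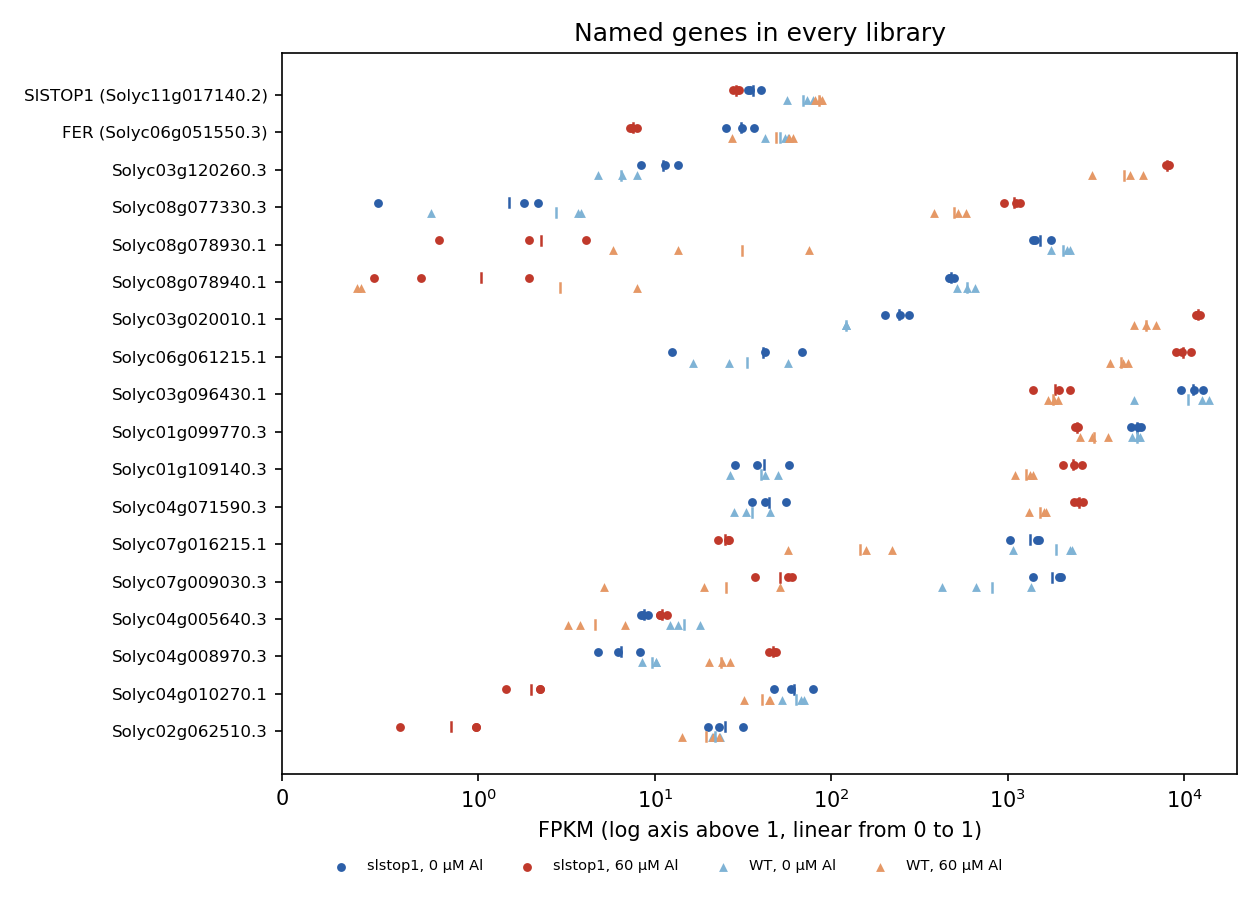
FPKM of the named genes in each library, on an axis that is logarithmic above 1 and linear from 0 to 1; circles are slstop1, triangles WT, and short bars the means of 3 libraries. FER falls in slstop1 with Al to between 7.20 and 7.97 FPKM while the WT groups overlap. The 4 genes with the largest log2 changes and the next 4, with the largest FPKM gains and losses, follow. They were chosen among genes whose slstop1 groups do not overlap.

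Fewer genes held the bulk of the transcript output in every mutant library with Al. Without Al, 519, 535 and 529 genes made up 50% of the summed FPKM of the mutant libraries, and with Al 354, 312 and 341 did (exact permutation test, two-sided, p = 0.1, the smallest that 3 against 3 can give). The 100 most abundant genes of each library held 21.9 ± 0.384% of the sum without Al and 32.7 ± 1.0% with Al (SD, n = 3; exact p = 0.1). The number of genes at 1000 FPKM or more was 71.7 ± 5.03 without and 83.3 ± 3.21 with Al (exact p = 0.1), and that at 100 FPKM or more 1306 ± 28.6 and 1280 ± 33.8 (exact p = 0.5). The median over members was 10.9 ± 0.0289 FPKM in libraries lacking Al and 6.83 ± 0.329 FPKM in those given it. In WT the 50% mark took 566, 564 and 422 genes without Al and 461, 463 and 451 with Al, groups that overlap because of replicate 3 without Al (exact p = 0.4). The 100 most abundant genes of each WT library held 22.3, 22.7 and 23.0% without Al and 27.7, 26.6 and 28.7% with Al. Those WT groups did not overlap (exact p = 0.1). The number of genes at 1000 FPKM or more overlapped in WT, at 68, 68 and 111 without Al and 73, 80 and 81 with Al. Whether the genotypes differ in these measures was not tested.

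**Figure D3:**
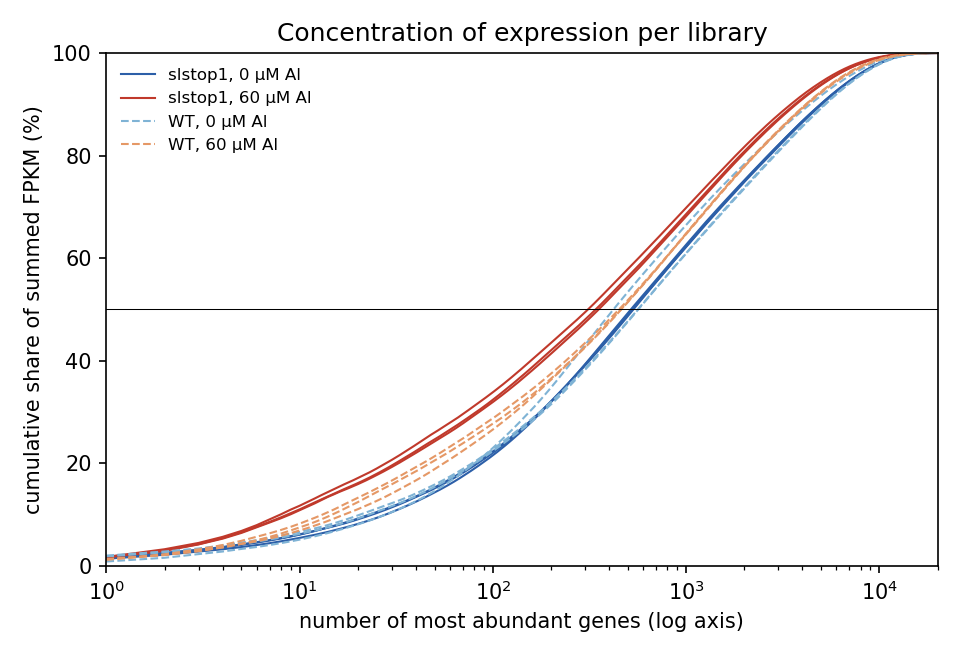
Cumulative share of the summed FPKM (percent) held by the most abundant genes of each library, against their number on a log axis, for slstop1 (solid) and WT (dashed). The slstop1 libraries with Al cross 50% at 312 to 354 genes and those without Al at 519 to 535.

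The lists of the 100 most abundant genes with and without Al differed in most of their entries. Of the 100 genes with the highest mean FPKM in the mutant without Al, 22 were also among the 100 highest with Al. The 100 highest with Al had a median level of 1453 FPKM there and 288 FPKM without Al, and 84 of them rose and 7 fell. The 100 highest without Al had a median of 1178 FPKM there and 372 FPKM with Al, and 84 fell and 10 rose. Few left the expressed range: 3 of the 100 highest with Al had a mean under 10 FPKM without Al. Of the 100 highest without Al, 2 had a mean under 10 FPKM with Al. Choosing genes for a high level in 1 group favours genes that are lower in the other, so these counts describe the lists and were not tested.

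Risen genes made up 16.2 ± 1.69% of the summed FPKM of the mutant without Al and 64.7 ± 1.04% with Al, and fallen genes 67.2 ± 2.0% and 18.6 ± 0.922% (SD, n = 3). These genes were chosen by the same mutant libraries, so the shares are a description. The WT libraries took no part in the direction of those calls, and in them the genes that rose in the mutant held 16.9, 16.7 and 11.9% of the sum without Al and 53.9, 54.4 and 58.7% with Al. The genes that fell in the mutant held 65.6, 65.4 and 74.3% in WT without Al and 27.3, 27.1 and 23.0% with Al. Neither pair of WT groups overlapped (p = 0.1 in both cases by a two-sided exact permutation test, which cannot go lower).

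A small number of genes carried much of the gain. Summed over the members, mean FPKM was higher with Al by 365017 in all over 5485 genes and lower by 350618 over the other 9158. Of the gain, 50% came from 90 genes, and of the loss, 50% came from 257 genes. The 10 largest gains held 20.2% of all gain, and the 10 largest losses 7.71% of all loss.

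The most abundant transcript of the mutant with Al was also the one with the largest gain. Solyc03g020010.1 on chromosome 3 had 245, 276 and 201 FPKM in the libraries lacking Al and 11653, 12258 and 11808 FPKM in those given Al (log2 5.63 ± 0.153, limma adjusted p = 3.46e-09). Solyc06g061215.1 on chromosome 6 had 67.9, 41.9 and 12.5 FPKM in the libraries lacking Al and 9020, 10834 and 9649 FPKM in those given Al (log2 8.17 ± 0.535, adjusted p = 3.14e-07). In WT with Al the libraries of Solyc03g020010.1 lay between 5189 and 6868 FPKM and those of Solyc06g061215.1 between 3814 and 4820 FPKM, below all mutant libraries with Al. Without Al, Solyc03g020010.1 was at 121, 121 and 120 FPKM in WT, also below all mutant libraries. Solyc06g061215.1 was at 56.5, 26.3 and 16.5 FPKM there, which overlaps the mutant. The log2 changes in WT were 5.62 and 7.17. The interaction test did not pass for either (adjusted p = 0.992 and 0.619).

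The largest losses were of genes that were very abundant without Al. Solyc03g096430.1 on chromosome 3 had 9549, 12766 and 11286 FPKM in the libraries lacking Al and 1938, 2252 and 1390 FPKM in those given Al, 6.02 times as high without Al (log2 -2.61 ± 0.336, limma adjusted p = 3.85e-05). Solyc01g099770.3 on chromosome 1 had 5498, 4959 and 5705 FPKM in the libraries lacking Al and 2495, 2413 and 2456 FPKM in those given Al (log2 -1.13 ± 0.165, adjusted p = 9.87e-05). This second fall ranged from -1.74 to -0.66 over the alternatives and stayed called in all 23. Both genes remained above 1000 FPKM in every library.

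Falls were most frequent among genes of low level, but above 1 FPKM their share did not decline steadily with level. Of the 387 members with a mean under 1 FPKM over the 6 mutant libraries, 13.7% rose and 58.1% fell, with a median log2 change of -0.77. Of the 4338 members at 1 to 5 FPKM, 12.8% rose and 49.6% fell (median -0.68), and of the 4924 at 5 to 20 FPKM, 19.0% rose and 48.1% fell (median -0.49). Of the 3613 members at 20 to 100 FPKM, 33.5% rose and 41.6% fell (median -0.10), of the 1166 at 100 to 500 FPKM, 38.7% rose and 45.6% fell (median -0.17), and of the 215 at 500 FPKM or more, 45.6% rose and 45.1% fell (median 0.01). Rises were again rarest in the lower classes with median-of-ratios scaling, which turned the balance of the 20 to 100 and 100 to 500 FPKM classes. There 20.6% of the 1 to 5 FPKM class rose and 41.2% fell, while 47.6% of the 20 to 100 FPKM class rose and 29.9% fell, 47.0% and 35.2% of the 100 to 500 FPKM class, and 50.2% and 37.7% of the highest class. The log2(FPKM + 1) scale understates changes of the lowest genes. Members at 1 FPKM or more only in the 3 mutant libraries without Al had to differ. These 1860 had medians of 4.16 FPKM without and 0.24 FPKM with Al, and 1835 of them were called lower. Their share of each class was not counted, so the frequency of falls in the lower classes is a description.

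**Figure D4:**
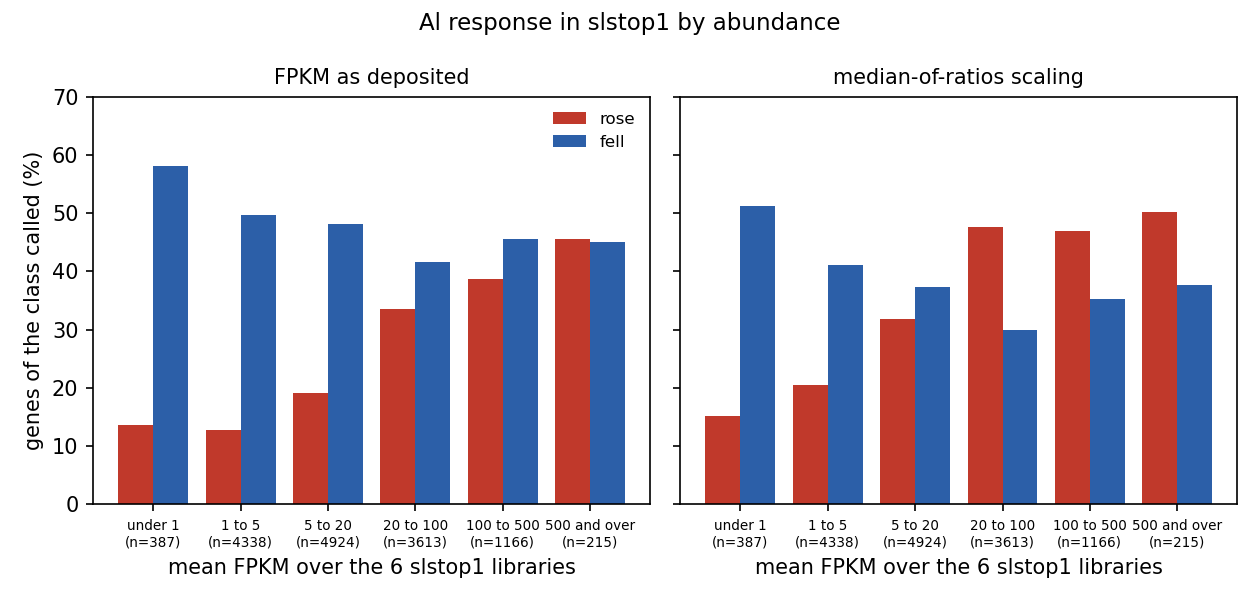
Percentage of genes that rose (red) or fell (blue) with Al in slstop1, by mean FPKM over the 6 slstop1 libraries, for FPKM as deposited (left) and after median-of-ratios scaling (right); n is the number of genes in each class. Rises go from 12.8% in the 1 to 5 FPKM class to 45.6% in the highest class as deposited, and falls exceed rises in the classes under 20 FPKM with both scalings. The lower classes include genes that passed the 1 FPKM limit through a single condition and had to differ.

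More genes were at 1 FPKM or more only without Al than only with it. Of the members, 10377 were at 1 FPKM or more in all 6 mutant libraries, 369 only in the 3 libraries with Al, 1860 only in the 3 without Al, and 2037 in other mixtures. Members of the one-sided groups passed the limit through a single condition and had to differ. Their levels were modest: the 1860 had a median of 4.16 FPKM without Al and 0.24 FPKM with Al, and the 369 had 0.257 and 3.1 FPKM. At least 10 FPKM in a library was reached by 471 of the 1860 and by 74 of the 369. The excess of losses was also present with 5 FPKM as the limit, at 2096 against 530 genes, and with 0.5 FPKM, at 1629 against 346. These counts were not corrected for the lower values that a larger share of abundant transcripts gives all other genes.

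Exact zeros call for care. In all 3 libraries with Al 257 members were listed at 0, and 62 in all 3 without Al. A listed 0 can be a failed estimate, since 49 members had a 0 and at least 10 FPKM among the 3 replicates without Al and 36 among those with Al. Only 9 and 7 of these were called.

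The response was spread over all chromosomes. On the 12 numbered chromosomes 18.4% to 24.6% of members rose and 43.2% to 50.6% fell, and the median log2 change ran from -0.61 on chromosome 12 and -0.59 on chromosome 11 to -0.33 on chromosome 4. With median-of-ratios scaling the medians ran from -0.23 on chromosome 12 to 0.08 on chromosome 4. Genes on a chromosome are not replicates, and no test was made between chromosomes.

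Some of the large changes stood in runs of neighbouring genes, and most did not. Among members with a change of at least 2, 298 of the 2424 placed genes that fell stood in 90 runs of 3 or more consecutive members, and 57 of the 940 that rose stood in 16 such runs. Of all members 16.7% fell and 6.47% rose by at least 2, so runs also arise in a random order. How many a random order would give was not computed. The longest run of falls held 9 consecutive members on chromosome 7, from Solyc07g043330.2 to Solyc07g043500.1, with log2 changes from -7.09 to -2.39 in the mutant. Their summed level was 3263 FPKM without Al and 229 FPKM with Al. The WT libraries shared in the estimate of spread behind the calls, but not in the direction or size of the mutant changes. In WT the same genes had log2 changes from -6.28 to -1.63, and 1 of them, Solyc07g043400.1, was not called (-2.54, limma adjusted p = 0.158). That gene was listed at 0, 17.1 and 0 FPKM in the mutant with Al, so its zeros may be failed estimates. The 9 genes did not move by like amounts: Solyc07g043360.1 within the run kept 210 of 1104 FPKM, while Solyc07g043460.3 went from 142 to 0.503 FPKM.

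The longest run of rises held 7 consecutive members on chromosome 8, from Solyc08g068680.3 to Solyc08g068770.2, with a summed level of 310 FPKM without Al and 3235 FPKM with Al. Their log2 changes ran from 2.51 to 4.08 in the mutant and from 2.38 to 4.21 in WT. The abundant Solyc03g020010.1 headed a run of 5 on chromosome 3, which together rose from 331 to 16838 FPKM. Neighbours of this kind are often duplicated genes with similar sequence, between which reads may have been split, so the members of a run are uncertain as separate genes and are not independent of each other.

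WT roots answered Al with changes in much the same direction, and the size of the change was compared gene by gene. Among the 14643 members, 9264 were called in WT (background 60.9%), 3358 higher (background 21.9%) and 5906 lower (background 39%). The 185 members that rose by at least 4 in the mutant had a median change of 4.74 there and 4.61 in WT, and all 185 were called higher in WT. The 408 that fell by at least 4 had a median of -4.82 in the mutant and -3.80 in WT, and 98.8% were called lower in WT. With median-of-ratios scaling these medians were 5.15 and 4.78 for rises and -4.48 and -3.57 for falls. The classes were chosen on the mutant values, which pushes the mutant median outward and not the WT median, so the difference between them is a description.

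Among smaller changes in the mutant, whose chance of passing a threshold in WT is lower for their size alone, the calls were as follows. Of the 1717 members called with a fall under 1 in size in the mutant, 57.7% were called lower in WT, and of the 1152 called with a rise under 1, 72.1% were called higher. There were 1165 members called lower in the mutant and not called in WT (median log2 -0.86 and -0.33) and 452 called higher in the mutant and not called in WT (0.75 and 0.39). The interaction test, which asks whether the response itself differed, was passed by 36 of the 1165 and by 1 of the 452.

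**Figure D5:**
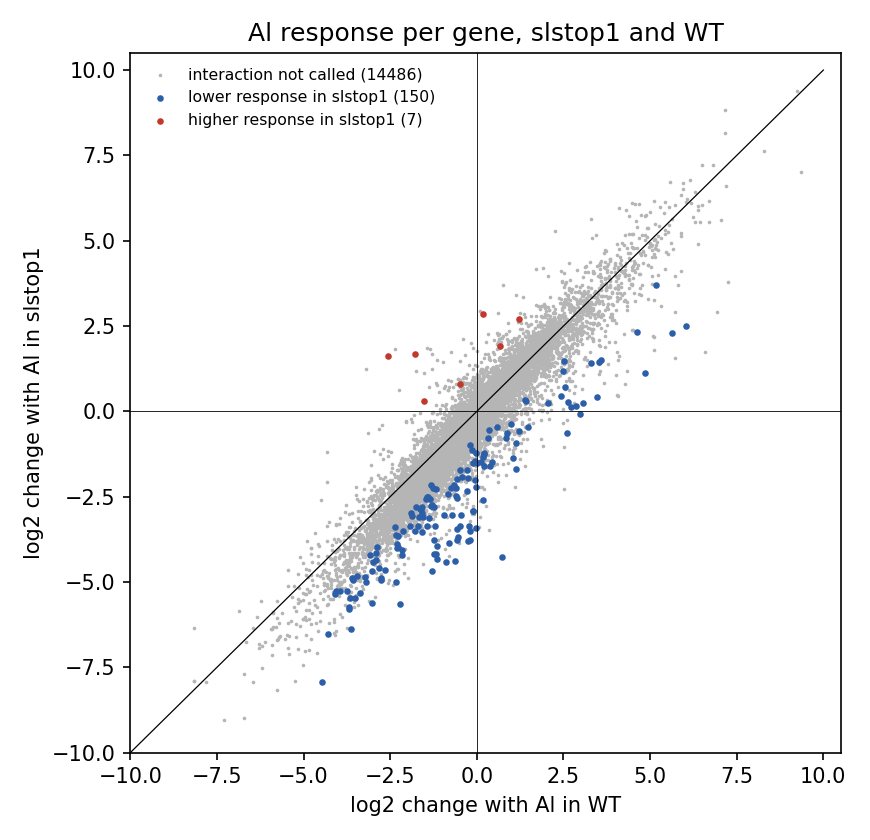
Log2 change with Al in WT (horizontal) and in slstop1 (vertical) for each of 14643 genes, with the line of equal change; coloured points passed the interaction test at an adjusted p under 0.05. Of these 150 lie below the line, with a lower response in slstop1, and 7 above it.

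By that test the response of the mutant differed from that of WT for 157 members (background 1.02%), 150 with a lower (background 0.975%) and 7 with a higher response in the mutant (background 0.0503%). Of the 150, 82 fell in both genotypes, with a median change of -3.91 in the mutant and -1.88 in WT. Their median level with Al was 2.96 FPKM in the mutant and 12.2 FPKM in WT, from 61.4 and 65.2 FPKM without Al. A further 36 fell in the mutant only (median -2.12 against -0.11), 8 fell in the mutant and rose in WT, 12 rose in both by less in the mutant (1.46 against 3.56), and 12 rose in WT and were not called in the mutant (0.19 against 2.61). All of these genes were chosen by the interaction test, which favours a wide gap between the genotypes, so their medians are a description. The number of interaction calls was 95 with median-of-ratios scaling, 80 lower and 15 higher, of which 87 were among the 157.

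The number of interaction calls changed when single libraries were left out. It was 76 and 72 when replicate 1 or 2 of the slstop1 group given Al was left out, 60, 52 and 58 without replicate 1, 2 or 3 of slstop1 without Al, 67 without replicate 1 of WT with Al, and 77 without replicate 1 of WT without Al. It rose to 348, 51 of them higher, without replicate 3 of WT without Al, a library with 422 genes to the 50% mark against 566 and 564 in the others of its group. The remaining omissions gave 128 (replicate 3 of slstop1 with Al), 234 and 140 (replicates 2 and 3 of WT with Al) and 112 (replicate 2 of WT without Al). Each omission also makes a group smaller, which by itself weakens the test.

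The most negative interactions given here belonged to genes that nearly vanished in the mutant only. They were chosen among called genes with no exact 0, a mean of at least 5 FPKM in any group and mutant groups apart. Solyc04g010270.1 on chromosome 4 had 59.0, 79.2 and 47.3 FPKM in the libraries lacking Al and 1.44, 2.25 and 2.25 FPKM in those given Al in the mutant, against 67.0, 52.4 and 69.8 FPKM and 31.9, 44.5 and 45.1 FPKM in WT (interaction log2 -3.75 ± 0.309, limma adjusted p = 0.000422). Solyc02g062510.3 on chromosome 2 had 23.0, 31.7 and 19.9 FPKM in the libraries lacking Al and 0.6, 0.99 and 0.99 FPKM in those given Al in the mutant. Its WT libraries had 23.4, 21.6 and 21.1 FPKM in the libraries lacking Al and 14.2, 21.5 and 23.1 FPKM in those given Al (interaction log2 -3.59 ± 0.301, adjusted p = 0.000422). Both calls held under all 22 alternatives, with adjusted p from 0.000302 to 0.00298.

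Among genes that met the same limits, these were the largest interactions in the other direction. Solyc04g008970.3 on chromosome 4 had 8.22, 6.22 and 4.78 FPKM in the libraries lacking Al and 47.4, 44.5 and 48.5 FPKM in those given Al in the mutant, and 10.2, 8.41 and 10.1 FPKM and 20.2, 23.9 and 26.7 FPKM in WT (interaction log2 1.5 ± 0.252, limma adjusted p = 0.0213). Solyc04g005640.3, on the same chromosome, had 8.34, 9.16 and 8.55 FPKM in the libraries lacking Al and 10.7, 11.7 and 10.7 FPKM in those given Al in the mutant, a change that did not pass (adjusted p = 0.237), though it did with median-of-ratios scaling (0.0223), quantile normalisation (0.0101) and only the 6 mutant libraries (0.0309). In WT it fell from 12.1, 13.6 and 18.1 FPKM to 3.75, 6.76 and 3.22 FPKM (interaction log2 1.83 ± 0.315, adjusted p = 0.0255). Both calls were lost when certain single libraries were left out. For Solyc04g008970.3, whose adjusted p ran from 0.0148 to 0.0655, 6 of 22 alternatives ended the call, among them leaving out replicate 1 or 2 of slstop1 with Al (0.0587 and 0.054), replicate 2 of slstop1 without Al (0.0584), or replicate 1 of either WT group (0.0546 with Al and 0.0635 without). For Solyc04g005640.3, at 0.00347 to 0.0739, 7 of 22 did, among them leaving out replicate 1 or 2 of slstop1 with Al (0.0587 and 0.0682), any replicate of slstop1 without Al (0.0699, 0.0585 and 0.0739) or replicate 1 of WT with Al (0.0643).

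Opposite calls in the genotypes were rare, 4 members that rose in the mutant and fell in WT and 19 that did the reverse, and 3 and 8 of these passed the interaction test. With median-of-ratios scaling 3 of the 4 and 6 of the 19 were still called in opposite directions. Those that rose in the mutant were at low levels. Solyc03g046250.1 was listed at 0 in all mutant libraries without Al and read 1.86, 1.99 and 2.92 FPKM with Al, against 2.71, 6.01 and 2.57 FPKM without and 0, 1.27 and 0 FPKM with Al in WT (interaction limma adjusted p = 0.00967). Solyc04g081170.3 read 0, 0 and 0.03 FPKM without and 4.62, 1.04 and 3.27 FPKM with Al in the mutant, and did not pass the interaction test (limma adjusted p = 0.0628, but 0.0266 without replicate 1 of WT at 0 µM Al).

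Of the 19 that fell in the mutant and rose in WT, Solyc06g054610.2 on chromosome 6 read 9.16, 8.72 and 7.36 FPKM without and 1.71, 1.41 and 2.69 FPKM with Al in the mutant. In WT it read 11.1, 14.3 and 16.2 FPKM without and 40.1, 16.5 and 45.8 FPKM with Al (interaction log2 -2.83 ± 0.466, limma adjusted p = 0.0201; 0.0014 to 0.0802 over 22 alternatives). The call was lost in 8 of these: with quantile normalisation (0.0802), when replicate 1 or 2 of the slstop1 group given Al was left out (0.0524 and 0.0578), without any replicate of slstop1 lacking Al (0.0605, 0.0576 and 0.0511) and without replicate 1 of WT with Al (0.0531) or lacking it (0.0563). Solyc01g086970.3 on chromosome 1, at 6.45, 11.7 and 20.5 FPKM without and 5.71, 1.69 and 0 FPKM with Al in the mutant, did not pass the interaction test (limma adjusted p = 0.104, but 0.0493 without replicate 1 of WT at 0 µM Al). Its fall in the mutant (log2 -2.27 ± 0.882, adjusted p = 0.0398) was lost in 10 of 23 alternatives (0.0144 to 0.156), among them leaving out replicate 2 or 3 of slstop1 with Al (0.0793 and 0.156), replicate 2 or 3 of slstop1 without Al (0.0811 and 0.124) or replicate 2 of WT with Al (0.0517).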

How the data were processed

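Root mRNA of 12 libraries was analysed from 1 table deposited by the authors, with 1 column per library. The values are taken as FPKM as deposited: the header names no unit, values have decimals and columns have unequal sums. Per the submitters' processing notes, TopHat2, HISAT2, StringTie and Cufflinks were named, without versions or roles; no label used here gives the genome build or annotation. The number of fragments per library is unknown, and counting intervals were left out. Relative depth came from ratios of low values, and 1 set of depths fitted 13 of 15 pairs of mutant libraries to within 0.03 (log2). Groups came from sample titles.

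The 15903 genes that reached 1 FPKM in 3 or more of the 12 libraries were fitted as log2(FPKM + 1) with group means in limma 3.58.1 (R 4.3.3, eBayes with trend), with Benjamini-Hochberg adjustment over all of them. Members' rows are reported; calls need an adjusted p under 0.05. The interaction is the response in slstop1 minus that in WT. The fit was run on simulated data in which few genes changed, unlike here, so that run does not bear on the scaling. Replicates did not duplicate each other (at least 97.1% of members differed in any pair within a mutant group). Descriptions used pandas 2.3.3 and scipy 1.17.1 in Python 3.11.15, and figures matplotlib 3.10.9.

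The members, named identifiers and tests were chosen with earlier results of these data known. By rule, named genes had mutant groups that did not overlap and the 2 largest rises and falls: by log2 change (a mean of at least 5 FPKM in a group, no exact 0), by FPKM gain or loss, by log2 change among genes at 20 FPKM or more in all 6 libraries, by interaction, and among opposite calls. The interaction choices also needed a mean of at least 5 FPKM in any group and no exact 0 in any library. Genes that begin, end or stand out within a run were chosen after their values were seen. The reference gene table (SLM_r2.1) matched 0 identifiers, so 30 gene lists to be matched by description, leaf markers among them, were not used. Alternatives were other pseudocounts (0.1 and 5), filters, scalings, variance settings, library sets, a replicate block, other detection limits and a minimum log2 change of 1.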

Additional observations from a re-analysis of the deposited data

Results flagged for a closer look

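The Al response differed between slstop1 and WT, by the interaction test, for 157 members. Among the named genes it was lower in slstop1 for Solyc04g010270.1 (interaction log2 -3.75), Solyc02g062510.3 (-3.59) and Solyc06g054610.2 (-2.83). It was higher in slstop1 for Solyc03g046250.1 (3.47), Solyc04g005640.3 (1.83) and Solyc04g008970.3 (1.5). The size for Solyc03g046250.1 rests on libraries at 0 and so on the pseudocount, and ran from 1.21 to 8.43 over the alternatives. Groups of 3 libraries are too small for a test of single outlying libraries.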

How the results depend on the processing

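Of 203 recomputed counts and shares, 160 stayed within their limits (1.5 times for counts) and 43 moved; of 722 recomputed changes of single genes, 679 kept direction and call, and 1 turned, that of SlSTOP1 in slstop1 (0.16 with median-of-ratios scaling). The number of members called for Al in slstop1 ran from 9347 to 10972 in all alternatives except 2 that shrink the set by construction, a mean of at least 5 FPKM (7364) and a log2 change of at least 1 (7313); risen members numbered 5199 with quantile normalisation and 2155 with a log2 change of at least 1. Interaction calls numbered 95 (15 higher, 80 lower) with median-of-ratios scaling, 61 (15 and 46) with quantile normalisation, 12 higher with a pseudocount of 5, 4 higher with a mean of at least 5 FPKM, 13 higher when adjusted over the members alone and 98 lower with no filter. Leaving out 1 library gave 52 to 348 interaction calls, 2 to 51 higher and 49 to 297 lower. With the replicate block there were 66, 2 higher and 64 lower, and 9960 for Al in slstop1; deviations of same-numbered libraries correlated at over 0.1 in 0 of 18 pairs between groups (-0.24 to 0.0925), and the best match in another group had the library's own number in 4 of 36 cases, so the numbers were not taken to pair the samples. When the total was taken without any library's 100 most abundant genes, this changed the gain in share of risen genes from 48.5 to 39.5 percentage points and the loss of fallen genes from -48.6 to -42.3; as a scaling of the fit, this was chosen after seeing the data and gave 10090 calls. At a limit of 5 FPKM 6583 genes passed in all 6 libraries, and on chromosome 0, which holds unplaced genes, 25 members fell after median-of-ratios scaling against 38. The cause of these shifts was not tested beyond what each setting changes by construction. Depth is unknown, so differences among genes near 1 FPKM could not be weighed against counting error.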
